A study of Homo sapiens with 8 samples.

Results

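The 10 genes described here encode proteins of the EF-hand calcium-binding families: the calbindins CALB1 (ENSG00000104327, chromosome 8) and CALB2 (ENSG00000172137, chromosome 16), and the S100 proteins S100A2 (ENSG00000196754), S100A4 (ENSG00000196154), S100A6 (ENSG00000197956), S100A10 (ENSG00000197747), S100A11 (ENSG00000163191), S100A14 (ENSG00000189334) and S100A16 (ENSG00000188643) on chromosome 1 and S100P (ENSG00000163993) on chromosome 4. They were taken by name from the 57736 genes listed for each library. CALB1 was selected on its difference between the untreated lines, and CALB2 was selected on its rise with doxycycline, so those values are a description without a test. Every comparison shares untreated libraries with those selections, so both calbindins are described without a test throughout, and counts of called members cover the 8 S100 genes. The choice of the other 8 names was made with earlier results of these data known.

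Sequencing was done on RNA of LS174T, an established cell line from a human colon adenocarcinoma, in derivatives that express the Tet repressor and a short hairpin RNA that doxycycline switches on. The ASCL2 line carries a hairpin that targets ASCL2, known as a stem cell transcription factor of the intestine, and the WiNTRLINC1 line, obtained by screening cell clones, carries one against the long non-coding RNA WiNTRLINC1. Each line was grown for 3 days with doxycycline at 1 ug/ml or without it, which gives 4 groups of 2 libraries. The study asked which genes change on loss of either transcript. No group holds doxycycline-treated cells without a hairpin, so the agent and the hairpin cannot be told apart, and each line is a separate derivative, so hairpin target and line cannot be told apart either. Title and source name conflict with the genotype label, which in all 8 samples gives the opposite hairpin target; grouping was by title.

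EF-hand proteins bind calcium ions in a helix-loop-helix fold. Calbindins act mainly as cytosolic calcium buffers: CALB1 (calbindin-D28k) is known from neurons and the distal nephron, and CALB2 (calretinin) from neurons and mesothelium. S100 proteins are small, mostly dimeric EF-hand proteins that on binding calcium attach to target proteins such as annexins, myosin and ezrin, and several of them are abundant in intestinal and other epithelia.

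Most S100 genes lie side by side on chromosome 1. In the RefSeq gene order, S100A11 follows S100A10 as the next protein-coding gene, and the remaining chromosome 1 members, from S100A6 to S100A14, stand 54 to 60 protein-coding genes after S100A10. Promoter entries were found for 8 of the 10 members, all of them S100 genes. The 250 bases before the RefSeq start (GRCh38.p14, 5′ to 3′ on the gene's strand) are shown for S100A10 (chr1:151993860-151994109, minus strand) and S100A11 (chr1:152037005-152037254, minus strand), neighbours that rose with doxycycline in both lines, for S100A4 (chr1:153545807-153546056, minus strand), which was lower with doxycycline in the ASCL2 line, and for S100P (chr4:6693628-6693877, plus strand), which rose on another chromosome. Capitals mark CANNTG, the core bound by basic helix-loop-helix factors, the family of ASCL2, and TATAAA, the letters of a TATA box.

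S100A10: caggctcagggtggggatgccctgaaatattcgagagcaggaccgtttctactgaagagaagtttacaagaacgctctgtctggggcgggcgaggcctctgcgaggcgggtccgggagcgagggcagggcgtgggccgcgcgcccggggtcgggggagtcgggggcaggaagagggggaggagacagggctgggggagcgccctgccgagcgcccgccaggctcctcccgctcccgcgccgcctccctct
S100A11: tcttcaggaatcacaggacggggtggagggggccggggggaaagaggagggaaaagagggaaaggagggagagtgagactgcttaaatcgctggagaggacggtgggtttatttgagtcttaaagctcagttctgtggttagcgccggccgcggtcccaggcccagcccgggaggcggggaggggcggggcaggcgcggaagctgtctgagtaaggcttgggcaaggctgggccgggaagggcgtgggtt
S100A4: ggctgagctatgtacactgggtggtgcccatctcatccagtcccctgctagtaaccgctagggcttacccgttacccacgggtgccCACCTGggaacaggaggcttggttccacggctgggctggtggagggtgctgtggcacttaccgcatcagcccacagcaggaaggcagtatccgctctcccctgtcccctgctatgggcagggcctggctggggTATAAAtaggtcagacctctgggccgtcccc
S100P: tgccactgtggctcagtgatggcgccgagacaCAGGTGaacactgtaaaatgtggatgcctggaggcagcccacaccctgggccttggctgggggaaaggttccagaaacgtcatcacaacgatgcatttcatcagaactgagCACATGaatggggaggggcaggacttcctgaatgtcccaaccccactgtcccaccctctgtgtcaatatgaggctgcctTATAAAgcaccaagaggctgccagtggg

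Neither motif was found on either strand in the windows of S100A10 and S100A11. The S100A4 window held CACCTG with its first letter 164 bases before the start and TATAAA 31 bases before it. In the S100P window CAGGTG lay 218 bases, CACATG 107 bases and TATAAA 28 bases before the start. The windows of S100A2, S100A6, S100A14 and S100A16, not printed here, all held CANNTG and none held TATAAA. Of these genes, S100A6 and S100A16 also rose in the WiNTRLINC1 line. Of 35116 promoter windows of the same length, 61.8% held CANNTG and 10.7% held TATAAA, so a CANNTG match is common among promoters. These matches describe letters, not occupied sites, and no binding was measured here.

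ASCL2 (ENSG00000183734) checked the labels. The deposited values are read counts, with signs of scaling before deposit in 7 of 8 libraries. That of ASCL2 was 2855 and 3373 in the untreated ASCL2 line and 532 and 586 with doxycycline. The WiNTRLINC1 line had 2540 and 2034 without and 805 and 697 with doxycycline. ASCL2 fell by 2.47 ± 0.117 (SE) and by 1.60 ± 0.117 on the log2 scale (limma adjusted p = 3.93e-09 and 3.46e-07). A fall in both lines cannot decide between the conflicting labels. Library totals lay between 21524463 and 22941231, with 31503 to 33959 genes above 0. The labels do not say that the 2 libraries of a group came from separate cultures, so the p-values here cover just the variation among these libraries, and that may be technical. In bulk RNA, fewer cells expressing a gene and less RNA per cell cannot be told apart.

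All 10 genes had a value of at least 26 in every library and were tested. Their summed share was 0.335% and 0.307% of the library total in the untreated ASCL2 line and 0.394% and 0.405% after doxycycline. The share was lower in the WiNTRLINC1 line, 0.159% and 0.155% untreated and 0.193% and 0.191% treated. These sums include CALB1 and CALB2, which were selected on their differences between groups, so the shares are a description without a test. S100A6 had the highest value of the 10 in the ASCL2 line (mean 22633 untreated). Levels per kilobase used the merged length of all annotated exons of a gene, 7138 bases for CALB1. This can exceed the transcript present and then understates the level, so the order between genes is approximate. S100A6 had the highest mean level in the untreated ASCL2 line (23300 per kilobase), followed by S100A14 (8990), S100P (8420), S100A16 (5400), S100A11 (5130), S100A4 (2970) and S100A10 (2690). CALB1 (716), CALB2 (123) and S100A2 (94.8) were the lowest there. The libraries of S100A14 and S100P, of S100A16 and S100A11, and of S100A4 and S100A10 overlapped, so these neighbours in the order were not separated.

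The order differed in the WiNTRLINC1 line. Untreated, S100A4 (7420 per kilobase), S100A6 (7080) and S100A14 (6910) were highest, with overlap between S100A4 and S100A6 and between S100A6 and S100A14. They were followed by S100P (3430) and S100A16 (3180), which overlapped, then S100A10 (977), S100A11 (444), S100A2 (61.3), CALB2 (41.1) and CALB1 (4.13). With doxycycline, neighbours in the order did not overlap in either line. The treated ASCL2 line ran from S100A6 (26000 per kilobase), S100P (13600), S100A11 (10300), S100A16 (8040), S100A14 (7790), S100A10 (5270) and S100A4 (1980) to CALB1 (803), CALB2 (475) and S100A2 (98.0). In the treated WiNTRLINC1 line the levels were 8920 for S100A6, 8290 for S100A4, 6190 for S100A14, 4570 for S100P, 4080 for S100A16, 2410 for S100A10, 653 for S100A11, 215 for CALB2, 50.1 for S100A2 and 9.95 for CALB1.

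**Figure D1:**
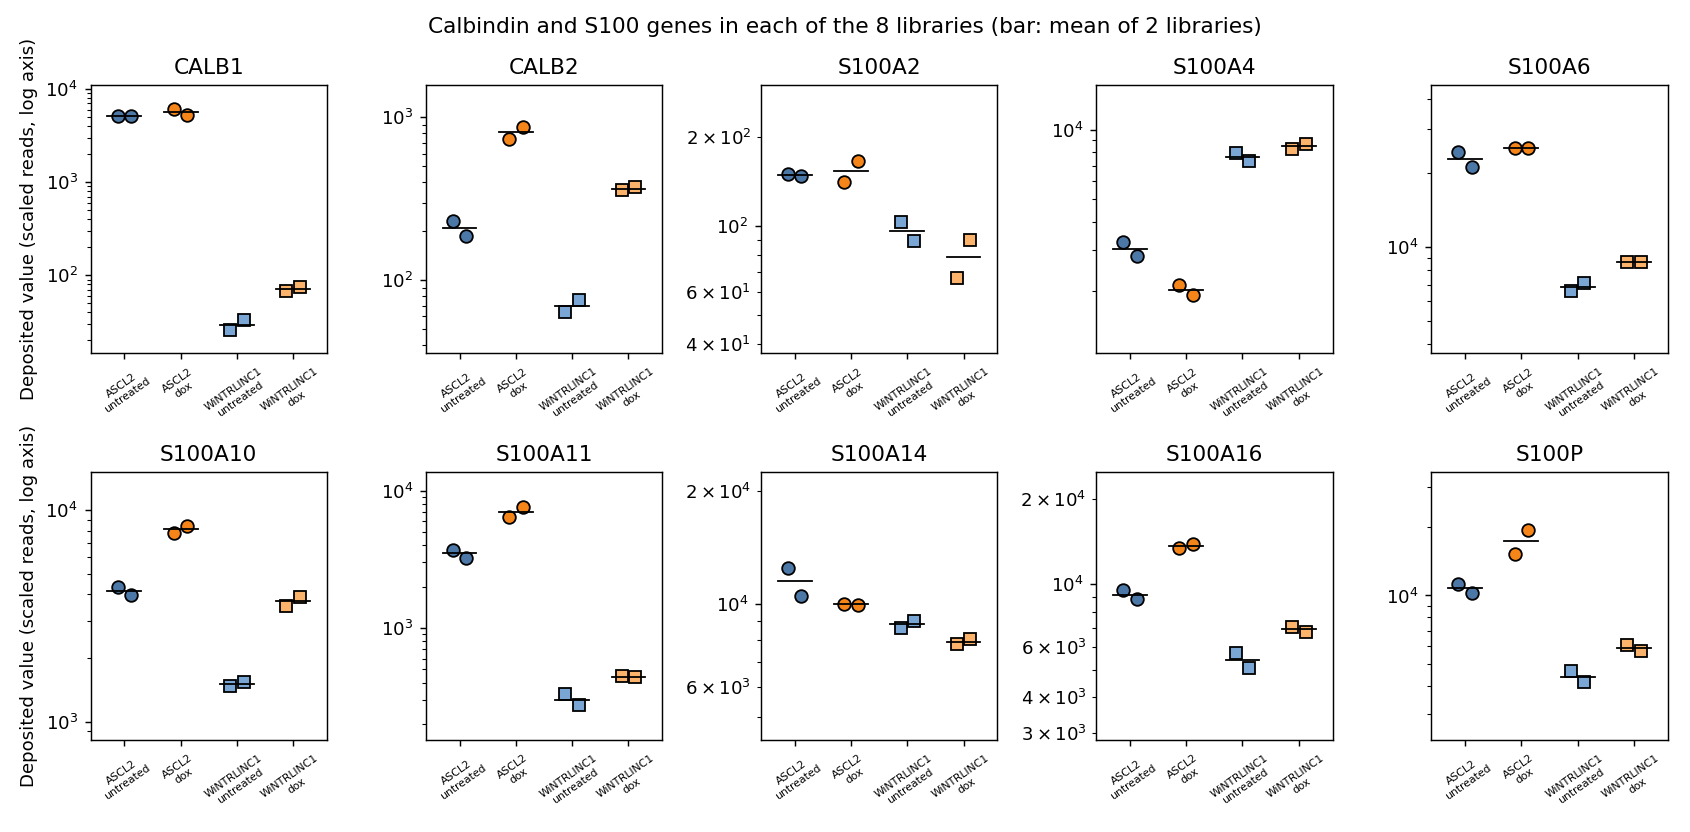
Deposited value (scaled read count, log axis) of each of the 10 genes in every library, by group; each point is 1 library and each group has 2. CALB1 lies between 5101 and 6149 in the ASCL2 line and between 26 and 75 in the WiNTRLINC1 line, and CALB2 is higher in the treated than in the untreated libraries of each line.

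CALB1 had values of 5101 and 5124 in the untreated and 6149 and 5316 in the treated ASCL2 line. Its values in the WiNTRLINC1 line were 26 and 33 untreated and 67 and 75 treated. Every library of the ASCL2 line was thus far above every library of the WiNTRLINC1 line. Between the untreated lines the level differed 169-fold, a log2 difference of -7.40 ± 0.126 (SE) for the WiNTRLINC1 minus the ASCL2 line, and between the treated lines 79.5-fold. These differences, which chose the gene, carry no test.

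With doxycycline the CALB1 level was 2.37-fold higher in the WiNTRLINC1 line (log2 difference 1.25 ± 0.126) and 1.12-fold higher in the ASCL2 line (0.16 ± 0.126). The difference between these responses was 1.09 ± 0.178 on the log2 scale. The 3 genes whose log2 values followed CALB1 most closely over the 8 libraries, among 14560 genes, were DNM1 (r = 0.9989), YIPF4 (r = 0.9988) and PLPP1 (r = 0.9986). The 8 libraries form 2 sets by line, so the r values mainly compare 2 levels and are given as a description only.

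CALB2 had values of 232 and 186 in the untreated ASCL2 line and 740 and 879 with doxycycline. The WiNTRLINC1 line gave 64 and 76 untreated and 358 and 373 treated. Treated libraries lay above untreated ones in both lines, 3.87-fold in the ASCL2 line (log2 change 1.95 ± 0.152) and 5.18-fold in the WiNTRLINC1 line (2.37 ± 0.152). This rise, which chose the gene, carries no test. The WiNTRLINC1 response exceeded the other by 0.42 ± 0.215 in log2 units. Between the untreated lines the CALB2 level was 2.95-fold lower in the WiNTRLINC1 line (-1.56 ± 0.152), and between the treated lines 2.20-fold lower. Genes with the most similar log2 values over the 8 libraries were UGT8 (r = 0.9896), E2F5 (r = 0.9871) and C3orf52 (r = 0.9869).

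Among the 8 S100 members, 4 were higher and 1 was lower by limma with doxycycline in the ASCL2 line. There 26.6% of the 22100 genes tested were called, 13.9% higher and 12.7% lower. The median log2 change of the 8 was 0.37, and that of all genes was 0.01. Of the same 8, 5 were higher and none was lower by limma with doxycycline in the WiNTRLINC1 line. None was lower there at an unadjusted p under 0.05. In that line 18.6% of all genes were called, 9.54% higher and 9.03% lower, and the medians were 0.35 and 0.01. S100A10, S100A11, S100A16 and S100P rose in both lines, and S100A6 rose in the WiNTRLINC1 line. The count of 5 fell to 2 without the filter on low values, to 1 without the mean-variance trend, and to 3 when the first treated WiNTRLINC1 library was left out.

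S100A10, the partner of annexin A2 that does not itself bind calcium, had values of 4319 and 3985 in the untreated and 7820 and 8454 in the treated ASCL2 line. Values in the WiNTRLINC1 line were 1471 and 1544 untreated and 3532 and 3903 treated. It rose 1.96-fold (0.97 ± 0.0793, limma adjusted p = 6.39e-07) and 2.46-fold (1.30 ± 0.0793, limma adjusted p = 7.29e-08). The treated libraries were above the untreated ones in each line. With 2 libraries per group this can occur without a change, and the share of all genes that separate was not counted. The difference of 0.33 ± 0.112 between the responses did not pass the test (limma adjusted p = 0.0631), although it did with quantile normalization (0.0383) and with a filter at 50 (0.0487).

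S100A11, which binds annexin A1, had values of 3723 and 3249 in the untreated and 6397 and 7618 in the treated ASCL2 line. The WiNTRLINC1 line gave 329 and 275 untreated and 446 and 442 treated. It rose 2.01-fold (1.00 ± 0.108, limma adjusted p = 8.79e-06) and 1.47-fold (0.56 ± 0.108, limma adjusted p = 0.00199). The level of S100A11 was 15.7-fold lower in the treated WiNTRLINC1 than in the treated ASCL2 line. The smaller rise lost its call without the filter (0.0514) or the trend (0.0731). The responses differed by -0.44, which did not pass (limma adjusted p = 0.0662) but did with a pseudocount of 8 (0.0493), without the first treated ASCL2 library (0.0482) and without the second untreated WiNTRLINC1 library (0.03). Pseudogenes of S100A11 also held values. S100A11P1 had 164 and 159 against 321 and 297 in the ASCL2 line and 16 and 15 against 26 and 38 in the WiNTRLINC1 line, and rose 1.91-fold (limma adjusted p = 0.00834) and 1.97-fold (limma adjusted p = 0.00862). S100A11P2 had 95 and 69 against 209 and 174 in the ASCL2 line and 12 and 3 against 7 and 17 in the WiNTRLINC1 line, and passed the test in neither (limma adjusted p = 0.0799 and 0.352). The S100A11 values are uncertain where the counting could split reads between the copies. GENCODE lists an antisense gene at S100A11, AL450992.1, with values of at most 5, and one at S100A6, BX470102.1, with values of at most 17.

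S100A16, a widely expressed S100 protein, had values of 9526 and 8851 in the untreated and 13478 and 13877 in the treated ASCL2 line. Those of the WiNTRLINC1 line were 5734 and 5078 untreated and 7079 and 6813 treated. It rose 1.49-fold (0.57 ± 0.0762, limma adjusted p = 6.18e-05) and 1.29-fold (0.36 ± 0.0762, limma adjusted p = 0.0036). The difference of -0.21 between the responses did not pass (limma adjusted p = 0.226). For the WiNTRLINC1 line, dropping the trend ended the call (0.0821).

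S100P, which binds ezrin and the receptor AGER (RAGE), had values of 11251 and 10298 in the untreated and 15296 and 19524 in the treated ASCL2 line. The WiNTRLINC1 line had 4646 and 4140 untreated and 6021 and 5684 treated. It rose 1.61-fold (0.68 ± 0.101, limma adjusted p = 0.000164) and 1.33-fold (0.42 ± 0.101, limma adjusted p = 0.00948). The rise in the WiNTRLINC1 line lost its call without the filter (0.116), without the trend (0.143), without the second untreated library (0.103) and without the first treated library (0.0878). The difference between the responses did not pass (-0.27 ± 0.143, limma adjusted p = 0.249).

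S100A6 (calcyclin), which binds CACYBP and annexins, had values of 24279 and 20987 in the untreated and 25137 and 25264 in the treated ASCL2 line. Values of 6618 and 7133 untreated and 8686 and 8636 treated were found in the WiNTRLINC1 line. It rose 1.26-fold there (0.33 ± 0.0784, limma adjusted p = 0.00764), while in the ASCL2 line the 1.12-fold change did not pass (limma adjusted p = 0.158), except without the first untreated ASCL2 library (0.044). In the WiNTRLINC1 line the call was lost in 5 settings, without the filter (0.0586), without the trend (0.11) and without the first untreated (0.0765), the first treated (0.0581) or the second treated (0.0565) WiNTRLINC1 library.

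S100A4 (metastasin), which binds the heavy chain of non-muscle myosin, moved the other way in the ASCL2 line. Its values there were 3254 and 2827 untreated and 2125 and 1930 treated, and in the WiNTRLINC1 line 7905 and 7306 untreated and 8283 and 8703 treated. It fell by 0.58 ± 0.0842 on the log2 scale in the ASCL2 line (limma adjusted p = 0.000134), and differed by 0.16 in the WiNTRLINC1 line (limma adjusted p = 0.222). The difference between the responses was 0.74 ± 0.119 (limma adjusted p = 0.00057) and lost its call without the trend (0.0575). S100A3, which overlaps S100A4 on the same strand in GENCODE, had values of 173 and 119 untreated and 141 and 152 treated in the ASCL2 line, so reads of their shared stretch are uncertain for S100A4.

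S100A14, an S100 protein of epithelia, had values of 12472 and 10499 in the untreated and 9982 and 9916 in the treated ASCL2 line, and 8622 and 9018 against 7793 and 8028 in the WiNTRLINC1 line. In each line the treated libraries lay below the untreated ones. That can occur without a change when each group has 2 libraries, and the share of all genes that separate was not counted. Neither change passed the test (-0.20, limma adjusted p = 0.0804, and -0.16, limma adjusted p = 0.211). In the ASCL2 line it did pass with quantile normalization (0.0128) and without the second untreated library (0.0142). S100A2, a mainly nuclear S100 protein that binds p53, had values of 150 and 147 against 141 and 166 in the ASCL2 line and 103 and 89 against 67 and 90 in the WiNTRLINC1 line. Its groups overlapped and it did not pass the test (0.04, limma adjusted p = 0.903; -0.30, limma adjusted p = 0.349).

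**Figure D2:**
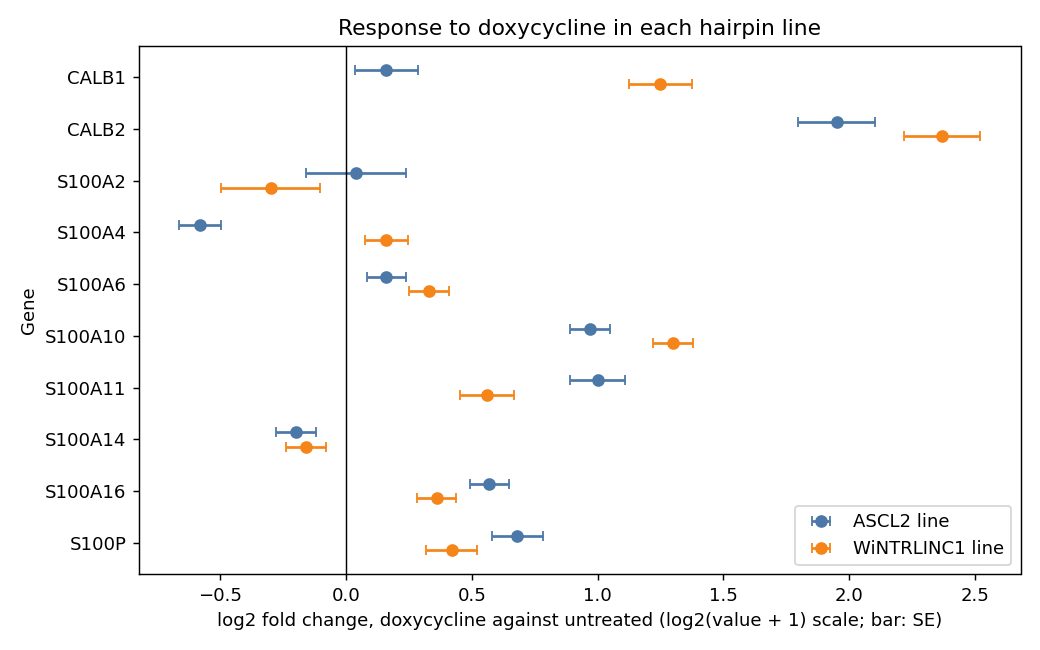
Log2 fold change with doxycycline against untreated libraries in each line, on the log2(value + 1) scale, for the 10 genes; bars are 1 standard error from limma, n = 2 against 2 libraries. CALB2, selected on its rise with doxycycline, lies furthest to the right in both lines, and S100A4 is the only one of the 8 S100 genes with a called fall, in the ASCL2 line.

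The difference between the responses of the 2 lines was called for 1 of the 8 S100 members, S100A4, and for 15.0% of all genes tested, 7.39% higher and 7.6% lower. None of the 8 was called lower by limma, with 1 lower at an unadjusted p under 0.05. The median difference of the 8 was -0.08 and that of all genes was -0.01. Without the trend none was called; without the first treated ASCL2 library 3 were called, S100A11 (-0.57, limma adjusted p = 0.0482) and S100P (-0.44, limma adjusted p = 0.0432) being added, and without the second untreated WiNTRLINC1 library 2 were called, S100A11 (-0.57, limma adjusted p = 0.03) being added.

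The untreated lines were compared last. Of the 8 S100 members, 7 were lower and 1 was higher in the WiNTRLINC1 line than in the ASCL2 line, where 55.2% of all genes tested were called, 25.7% higher and 29.5% lower, with a median over all genes of -0.04. The median log2 difference of the 8 was -1.03. S100A11 was 11.5-fold lower (-3.53 ± 0.108, limma adjusted p = 3.71e-12), S100A6 3.29-fold lower (-1.72 ± 0.0784, limma adjusted p = 2.14e-10) and S100A10 2.75-fold lower (-1.46 ± 0.0793, limma adjusted p = 1.27e-09).

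S100P was 2.45-fold lower (limma adjusted p = 6.09e-08), S100A16 1.70-fold lower (limma adjusted p = 7.52e-07) and S100A14 1.30-fold lower (limma adjusted p = 0.00109). The higher gene was S100A4, 2.51-fold above the ASCL2 line (1.32 ± 0.0842, limma adjusted p = 6.79e-09), and its level differed 4.19-fold between the treated lines. S100A2 was 1.55-fold lower (-0.63 ± 0.198, limma adjusted p = 0.0143), a call that was lost with quantile normalization (0.0569) and without the first untreated ASCL2 library (0.0601) or the second untreated WiNTRLINC1 library (0.094).

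**Figure D3:**
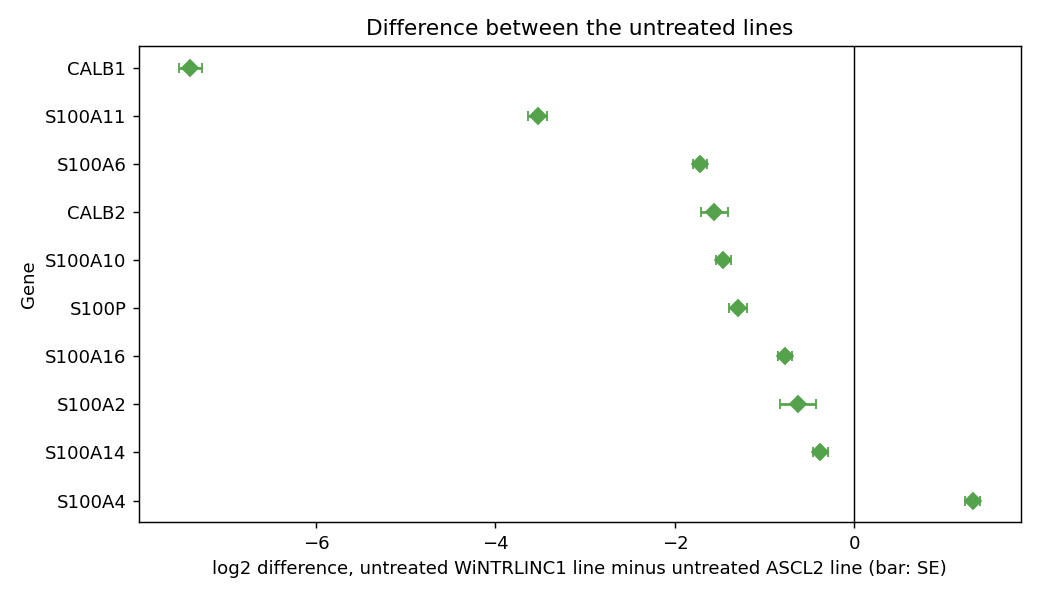
Log2 difference between the untreated lines, WiNTRLINC1 line minus ASCL2 line, for the 10 genes; bars are 1 standard error from limma, n = 2 against 2 libraries. CALB1, selected on this difference, is at -7.40 and S100A11 at -3.53; S100A4 alone lies above 0, at 1.32.

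The other S100 genes were mostly at low values. Of 13 genes outside the members, 5 passed the filter, and S100A8, S100A9, S100A12, S100B and S100G had values of at most 7 in every library. S100A13 was lower in the untreated WiNTRLINC1 than in the untreated ASCL2 line (log2 difference -1.51, limma adjusted p = 3.34e-07), as was S100A3 (-2.24, limma adjusted p = 9.57e-06). S100A5 fell by 2.87 ± 0.514 in the ASCL2 line (limma adjusted p = 0.000781) from values of 20 and 22 to 2 and 2. Of the 5, none rose in either line by limma and 1 fell in the ASCL2 line; at an unadjusted p under 0.05, 1 was higher in the WiNTRLINC1 line. Of 7 fused-type S100 genes such as FLG, whose proteins of the skin barrier carry an S100 domain, 3 passed the filter and none was called in any of the 4 comparisons. None had an unadjusted p under 0.05. Over all genes tested, 26.6% were called in the ASCL2 line, 18.6% in the WiNTRLINC1 line, 15.0% for the difference and 55.2% between the untreated lines.

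Known partners of the S100 proteins were followed next. Among 18 annexins and other partners the ASCL2 line showed 7 rises and 1 fall with doxycycline (median log2 change 0.19). The WiNTRLINC1 line showed 5 rises and 1 fall (median 0.10). Over every gene tested, limma called 13.9% up and 12.7% down for ASCL2 cells, against 9.54% up and 9.03% down for WiNTRLINC1 cells. ANXA1, the partner of S100A11, had values of 1406 and 1264 untreated and 2841 and 3197 treated in the ASCL2 line, and 431 and 415 against 847 and 862 in the WiNTRLINC1 line. It rose by 1.18 (limma adjusted p = 4.13e-07) and 1.01 (limma adjusted p = 2.35e-06) on the log2 scale. ANXA2, the partner of S100A10, rose by 0.38 (limma adjusted p = 0.0022) and 0.66 (limma adjusted p = 2.84e-05). ANXA3 rose by 1.10 and 1.28 (limma adjusted p = 9.74e-06 and 3.24e-06). ANXA5 rose by 0.37 in the ASCL2 line (limma adjusted p = 0.00238), and AHNAK, a large scaffold protein that binds the S100A10 and annexin A2 complex, rose by 0.44 in the WiNTRLINC1 line (limma adjusted p = 0.00201).

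The fall in the ASCL2 line was that of AGER (-0.73, limma adjusted p = 0.0128), and that in the WiNTRLINC1 line was MYH9, the myosin that S100A4 binds (-0.29, limma adjusted p = 0.00807); AGER is named here because it was the only fall and was chosen after its value was seen. In the untreated WiNTRLINC1 line 10 of the 18 were higher and 5 lower than in the ASCL2 line, against 25.7% and 29.5% of all genes tested. ANXA1 (-1.65, limma adjusted p = 1.47e-09) and ANXA2 (-1.31, limma adjusted p = 3.43e-09) were lower, while MYH9 (1.28, limma adjusted p = 1.24e-09) and ANXA13 (3.42, limma adjusted p = 2.02e-06) were higher.

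**Figure D4:**
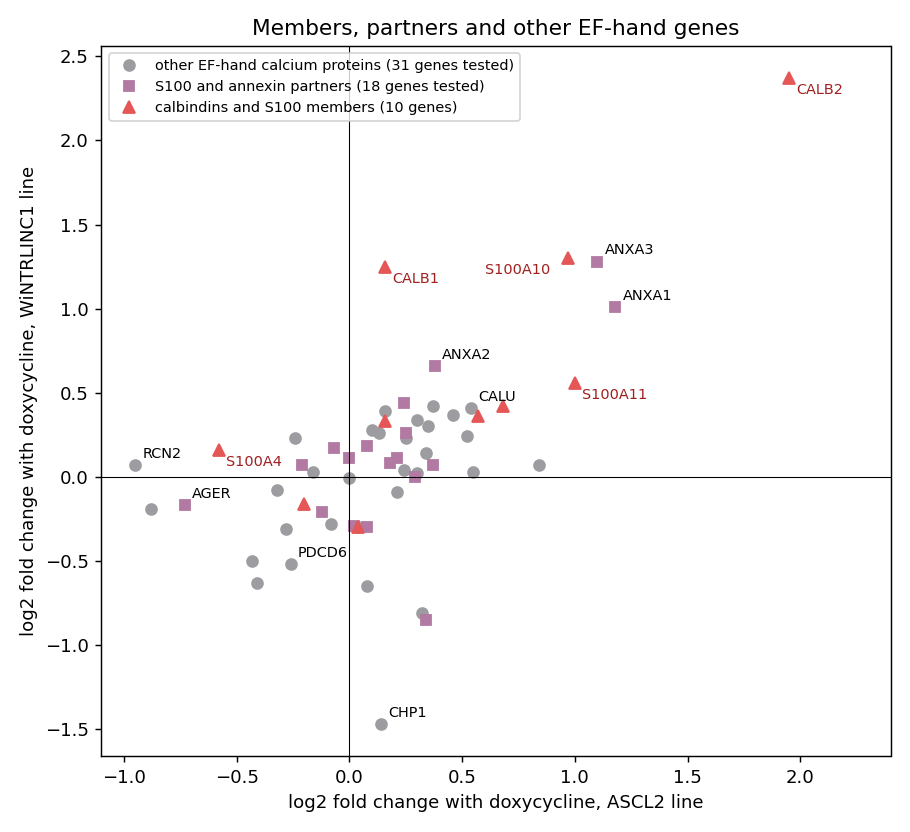
Log2 fold change with doxycycline in the ASCL2 line (x axis) against the WiNTRLINC1 line (y axis) for the 10 genes, the 18 annexins and other partners and 31 other EF-hand genes tested; each point is 1 gene. CALB2, selected on its rise with doxycycline, stands furthest along both axes. ANXA1 and ANXA3 lie near S100A10, and CHP1 lies near 0 on the x axis and below -1 on the y axis.

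Other EF-hand genes went both ways. Of the 31 tested (of 35), 11 were higher and 7 lower with doxycycline in the ASCL2 line (median 0.14). In the WiNTRLINC1 line 7 were higher and 6 lower (median 0.03). The shares of all genes tested were 13.9% higher and 12.7% lower in the ASCL2 line, and 9.54% and 9.03% in the WiNTRLINC1 line. RCN2, a calcium-binding protein of the endoplasmic reticulum, fell by 0.95 in the ASCL2 line (limma adjusted p = 5.54e-06) and differed by 0.07 in the WiNTRLINC1 line (limma adjusted p = 0.697). CALU (calumenin) rose by 0.54 in the ASCL2 line (limma adjusted p = 6.59e-05), as did the calcineurin subunit PPP3R1 by 0.52 (limma adjusted p = 0.000479) and the calcium sensor STIM2 by 0.55 (limma adjusted p = 0.00056).

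CHP1, a calcineurin-like protein, fell by 1.47 in the WiNTRLINC1 line (limma adjusted p = 2.40e-08), from 1997 and 1973 to 675 and 756. PDCD6, a penta-EF-hand protein, fell by 0.52 there (limma adjusted p = 0.000301), and CALU rose by 0.41 (limma adjusted p = 0.000893). In the untreated WiNTRLINC1 line 7 of the 31 were higher and 11 lower, among them VSNL1 (-1.39, limma adjusted p = 3.58e-09) and CAPNS1 (-1.07, limma adjusted p = 8.30e-08). Of all genes tested, 25.7% were higher and 29.5% lower in that comparison.

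The genes around the S100 genes on chromosome 1 were counted separately. The interval list held 66 protein-coding genes, with the members and the other S100 genes left out and the fused-type S100 genes kept; 63 were matched and 20 were tested. In the ASCL2 line none of the 20 rose by limma and 3 fell (median -0.02), and 1 was higher at an unadjusted p under 0.05. Of all genes tested, 13.9% rose and 12.7% fell there. ILF2 fell by 1.21 (limma adjusted p = 3.55e-08), INTS3 by 0.44 (limma adjusted p = 0.000982) and TDRKH by 0.51 (limma adjusted p = 0.00905). In the WiNTRLINC1 line 5 of the 20 were lower and none was higher by limma with doxycycline (median -0.14). None was higher at an unadjusted p under 0.05. Of all genes tested, 9.03% were lower and 9.54% higher there. Of the members on chromosome 1, S100A6, S100A10, S100A11 and S100A16 rose in that line. Of the 20, 4 were higher and 9 lower in the untreated WiNTRLINC1 line, a comparison with a median of -0.11 over the 20. Of all genes tested, 25.7% were higher and 29.5% lower in it.

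The libraries held the markers of colon epithelium. Of 12 colonocyte and goblet markers, KRT8 had values of 114236 and 104293 untreated in the ASCL2 line, and the summed value of the 12 ran from 204924 to 225560 untreated and 188372 to 208820 treated there. The sum of the WiNTRLINC1 line ran from 156755 to 165297 untreated and 127708 to 132826 treated. KRT8 and KRT18 held most of these sums, so the sums mainly follow these 2 keratins. KRT18 had values of 38977 and 36188 untreated and 8197 and 7734 treated in the WiNTRLINC1 line. With doxycycline 7 of the 12 fell in the ASCL2 line and none rose by limma, nor at an unadjusted p under 0.05. Limma calls over every gene tested were 12.7% down against 13.9% up in this comparison. GPA33 fell by 1.60 (limma adjusted p = 9.49e-10) and CDX2 by 0.76 (limma adjusted p = 2.22e-05). Of the 12, 2 rose and 4 fell in the WiNTRLINC1 line, among them KRT18, which fell by 2.24 (limma adjusted p = 6.17e-09). Over every gene tested, 9.54% went up against 9.03% down by limma in these WiNTRLINC1 libraries. MUC2 was 4.11 higher in the untreated WiNTRLINC1 line (limma adjusted p = 3.57e-14), where limma called 55.2% of every gene tested between the untreated lines. The part of these differences in the member values was not tested.

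Of the cells in which CALB1 or CALB2 are known, mesothelium and neurons were followed through marker lists; nephron markers are not analysed here. The 8 mesothelial markers summed to 306 to 344 untreated and 270 to 273 treated in the ASCL2 line, and 291 to 339 and 220 to 264 in the WiNTRLINC1 line, of which WT1 held 118 to 265; MSLN was at most 45. The 8 neuronal markers summed to 79 to 97 untreated and 104 to 121 treated in the ASCL2 line, and 47 to 48 and 32 to 39 in the WiNTRLINC1 line; SNAP25 was at most 5. The 6 fibroblast markers summed to at most 304, the 6 myeloid markers to at most 109 and the 3 endothelial markers to at most 33 in any library. With doxycycline no tested marker of these lists rose by limma. At an unadjusted p under 0.05, 1 neuronal marker was higher in the ASCL2 line, and 1 mesothelial, 1 fibroblast and 1 myeloid marker in the WiNTRLINC1 line. SYT1 fell by 1.52 (limma adjusted p = 0.0464) and COL1A1 by 1.44 (limma adjusted p = 0.00251) in the ASCL2 line, and WT1 fell by 0.75 (limma adjusted p = 0.00635) in the WiNTRLINC1 line. Between the untreated lines, lower calls in the WiNTRLINC1 line were COL1A1 (-3.37, limma adjusted p = 2.52e-07), TUBB3 (-1.39, limma adjusted p = 0.00186), STMN2 (-1.98, limma adjusted p = 0.0438) and LRRN4 (-2.05, limma adjusted p = 0.00666). Higher calls there were LUM (3.13, limma adjusted p = 0.00758), MSLN (1.85, limma adjusted p = 0.00622) and ITGAM (2.13, limma adjusted p = 0.00356). Of all genes tested, 55.2% were called in that comparison. The part of these markers in the member values was not tested.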

How the data were processed

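RNA was measured in 8 libraries of LS174T derivatives; per the labels' protocols, Trizol RNA was enriched for mRNA, cut with RNase III, made into libraries with the Ion Total RNA-Seq kit and run on the Ion Proton. Per the submitters' processing notes, the tools were TopHat2 2.0.9, cutadapt, DESeq and Cufflinks, and GRCh37, hg19 and mm9 appear as builds with no stated role; which program counted reads, and whether by strand, is not given in the sources used here. In unit, each deposited value is a score, a whole number. Scaling per library was inferred from low numbers that never occur or are overused, in 7 of 8 libraries. The second treated ASCL2 library had 2 missing numbers under 200 and 0 overused ones, so scaling was not shown for it. In 7 of 8 libraries a scaling factor followed the use of low numbers with a correlation above 0.5, and the depth estimated from it was 18.6 M to 28.0 M reads, which with 2 libraries per group limits precision.

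Because the scores were no raw counts, limma 3.58.1 in R 4.3.3 was used in place of a count test, on log2-transformed values (pseudocount 1), fitted jointly to all 4 groups with the trend of variance on mean; the 22100 genes reaching 10 in 2 or more libraries were tested, with 4 residual and 10.5 prior degrees of freedom, and the call threshold was 0.05 on the p-value after Benjamini-Hochberg adjustment over all of them. Folds are on that scale and understate low genes. The comparisons were doxycycline against untreated in each line, the difference of the responses (that of the WiNTRLINC1 line less that of the ASCL2 line) and the untreated lines (same order); both response comparisons share their untreated libraries with the last 2. The script was tested on simulated data. Of 57736 identifiers, 39501 matched a symbol; those without one made up 2.34% of the total. GENCODE and RefSeq tables of another build served for names, lengths and gene order, and for the printed promoters. WiNTRLINC1 is not analysed here, and 2 genes of the lists are left out of them and not reported here. The counts of called members had been planned over 9 members per comparison; they cover the 8 S100 genes because both calbindins were selected on untreated values that every comparison uses. The rule for named genes gave ASCL2, the 10 members, per list and comparison up to 4 called genes with the smallest adjusted p, and the 3 genes nearest in pattern to each calbindin; copies, overlapping genes, AGER, KRT8, KRT20 and some uncalled or low list genes are named besides, chosen after their values were seen. The members and lists were chosen with earlier results of these data known. Alternatives were other pseudocounts, filters, scalings and trend settings, only the groups compared, a replicate block and leaving out each library.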

Additional observations from a re-analysis of the deposited data

Results flagged for a closer look

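For 17 genes among ASCL2, the S100 members and the tested genes of the lists, the doxycycline response differed between the lines by limma's test of the difference itself (adjusted over all 22100 genes; WiNTRLINC1 line minus ASCL2 line, log2). Among the S100 members this was S100A4 (0.74). ASCL2 itself differed by 0.87. Over all 22100 genes tested, 15.0% were called in this comparison. By list, 1 of 5 other S100 genes and 1 of 18 partners were called. Of 31 other EF-hand genes 2 were higher and 2 lower, of 20 interval genes 2 and 1, and of 12 colon markers 5 and 1.

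Among the other EF-hand and S100 genes, S100A5 differed by 4.37 on values of 2 to 22, RCN2 by 1.02, SDF4 by 0.47, STIM2 by -0.53 and CHP1 by -1.62, and the S100A4 partner MYH9 by -0.31. In the chromosome 1 interval, ILF2 differed by 1.00, TDRKH by 0.57 and SNAPIN by -0.47. Among the colon epithelial markers, KRT20 differed by 1.28, GPA33 by 0.79, CDX1 by 0.75, CDX2 by 0.40, MUC2 by 0.68 and KRT18 by -2.24.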

How the results depend on the processing

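Over the 40 pairs of a member and a comparison, 632 values under alternatives kept their direction and side of the threshold or, for the untested calbindins, moved by less than 1 SE, 16 lost a call, 9 gained one, 11 calbindin values moved further and 2 reversed: S100A2 with doxycycline in the ASCL2 line (-0.07 to 0.16 when 1 library was left out, negative without the second treated ASCL2 library) and S100A14 in the difference of the responses (-0.08 to 0.17, negative without the first untreated ASCL2 library). The count of members called with doxycycline in the WiNTRLINC1 line was 5, and 2 without the filter and 1 without the trend; that in the difference of the responses was 1, and 0 by limma without the trend and 2 with a pseudocount of 8, a filter at 50 or quantile normalization. Leaving out 1 library at a time gave 5 to 6 members in the ASCL2 line, 3 to 5 in the WiNTRLINC1 line, 1 to 3 in the difference and 7 to 8 between the untreated lines. Over all genes, the calls went from 5884 to 3410 without the trend and 3665 without the second treated library in the ASCL2 line; from 4104 to 2395 without the filter, 1873 without the trend and 2709, 2706 and 2398 without the first untreated, first treated and second treated WiNTRLINC1 library; and from 3314 to 1914 without the filter and 1313 without the trend for the difference. The cause was not tested. Replicate numbers did not pair the libraries (correlations of their deviations -0.052 to 0.105); with a replicate block the member counts were 5, 5, 1 and 8, as without it. For the difference, a fit on only the groups compared is the fit on all groups and was not repeated.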
